A study of Homo sapiens with 12 samples.

Results

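Expression of VDR, the receptor for the active form of vitamin D, was examined in 3 human lung cancer lines together with CYP24A1, its best known target gene, and with 7 other genes for ligand-activated receptors: RXRA, RARA, RARB, RARG, PPARG, NR3C1 and AHR. These 9 of the 20003 genes in the deposited table were chosen by name. They were chosen with the differences between ZNF263 and control libraries already known, so those differences are given as values without a p-value. How many of the 9 passed the threshold used for all genes is counted below as a description only. The lines were PC9, HCC827 and H1975, which are non-small-cell lung cancer lines with activating EGFR mutations. Each carried either a control vector or a vector that expresses ZNF263, a zinc finger transcription factor, and each of the 6 groups had 2 libraries. Per the labels, all cells, controls included, were grown in DMEM and exposed stepwise to the EGFR inhibitor osimertinib. The titles add OR to each line's name, which the labels do not explain. The labels do not say that the 2 libraries of a group came from separate cultures, and a p-value here speaks only to how far libraries of a group differ, a spread that may be technical.

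Most of these receptors are nuclear receptors, proteins that bind a small lipophilic ligand and then regulate genes directly. VDR, the retinoic acid receptors RARA, RARB and RARG, and the fatty acid sensor PPARG all bind DNA as pairs with a retinoid X receptor such as RXRA. The glucocorticoid receptor NR3C1 binds mostly as a pair with itself. AHR, the receptor for aryl hydrocarbons and tryptophan metabolites, belongs to another protein family and binds DNA with its partner ARNT. CYP24A1 is the mitochondrial enzyme that inactivates active vitamin D, and VDR with its ligand induces it, so that the pathway limits itself. Lung epithelial cells respond to vitamin D, retinoids, glucocorticoids and aryl hydrocarbons. No ligand was added in this study as far as the labels say, and the DMEM supplements are not described.

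On the GRCh38 annotation of GENCODE release 29, all 9 genes are protein-coding. VDR lies at chr12:47841537-47943048 on the minus strand and RARG on the same arm at chr12:53210567-53232980, also on the minus strand. CYP24A1 lies at chr20:54153449-54173973 (minus), RXRA at chr9:134317098-134440585 (plus), RARA at chr17:40309192-40357643 (plus) and RARB at chr3:25174332-25597932 (plus). PPARG lies at chr3:12287368-12434356 (plus), NR3C1 at chr5:143277931-143435512 (minus) and AHR at chr7:16916359-17346152 (plus). Exons of VDR, RARA, RARB and AHR overlap exons of genes on the opposite strand, which for RARB is TOP2B. Reads from such partners cannot be told apart where counting ignored strand, and the strand setting is not given in the sources used here. AHR exons also overlap those of AC019117.2 on the same strand, and reads over that overlap cannot be told apart with any strand setting.

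RARG and AHR had the largest differences in H1975 among the receptors, and their upstream windows are printed for that reason. The windows run from base 250 to base 51 before a RefSeq start (GRCh38.p14), 5′ to 3′ on the gene's strand, with GGAGGA in capitals, a run found in the known G-rich binding motif of ZNF263.
RARG, chr12:53232260-53232459, minus strand: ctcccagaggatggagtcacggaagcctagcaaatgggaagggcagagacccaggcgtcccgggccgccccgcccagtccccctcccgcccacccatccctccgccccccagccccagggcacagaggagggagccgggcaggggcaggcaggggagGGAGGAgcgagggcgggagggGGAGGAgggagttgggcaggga
AHR, chr7:17298402-17298601, plus strand: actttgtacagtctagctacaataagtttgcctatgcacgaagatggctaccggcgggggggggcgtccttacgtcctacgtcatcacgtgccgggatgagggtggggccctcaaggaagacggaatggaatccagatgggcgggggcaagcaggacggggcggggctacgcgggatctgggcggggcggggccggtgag
The RARG window held 2 matches to GGAGGA and the AHR window held 0, with both strands searched. Windows of the other receptors were searched too, at each RefSeq start. The most matches in 1 window were 2 for RXRA, 2 for PPARG, 1 for NR3C1, 1 for RARA and 0 for RARB. These genes had 2, 6, 7, 3 and 4 starts. Of 35116 windows of the same length, 25.6% held at least 1 match. The other motifs searched were AGGTCA (the core hexamer of nuclear receptor sites, in 9.67% of windows), AGGTGA (a hexamer of vitamin D elements, 11.3%), GCGTG (the AHR-ARNT core, 26.3%) and AGAACA (a hexamer of glucocorticoid elements, 10.1%). Neither the RARG nor the AHR window held any of these 4. A match is a description of the letters and not a binding site. RefSeq windows were found for 7 of the 9 genes, not for VDR and CYP24A1.

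Values were FPKM, fragments scaled by gene length and library size. In each line between 10672 and 10997 genes reached 1 FPKM per library. ZNF263 itself averaged 9.33 ± 0.314 FPKM in control and 39.1 ± 0.221 in ZNF263 libraries of PC9 (SD, n = 2), 12.5 ± 0.977 and 19.7 ± 0.0927 in HCC827, and 9.91 ± 0.399 and 39.5 ± 0.502 in H1975. The ZNF263 libraries were thus above the controls in all 3 lines, by the smallest ratio in HCC827 (1.57-fold). All 7 lung epithelial markers reached 1 FPKM in HCC827 and 6 of 7 did in H1975, where NAPSA was at 0.349 or less. The libraries labelled PC9 reached 1 FPKM for 3 of the 7 (KRT8, KRT18 and CDH1). In them the epithelial adhesion molecule EPCAM was at 0.414 or less, KRT19 at 0 in 3 of 4 libraries and at 0.262 in the other, and NKX2-1 and NAPSA at 0.465 or less. These markers of lung adenocarcinoma epithelium are thus absent there, whether the libraries match their label was not tested, and every PC9 value below is that of the libraries so labelled. Of the leukocyte markers only CD68, also found in other cells, reached 1 FPKM, PTPRC and CD3E were at or near 0, and each of the 4 endothelial markers was under 1 FPKM. Summed epithelial marker FPKM went from 2258-2283 in control to 3440-3622 in ZNF263 libraries of PC9 and from 2146-2184 to 1448-1472 in H1975. In PC9 KRT8, KRT18 and CDH1 were each higher with ZNF263. In H1975 EPCAM went from 220 and 230 to 31.2 and 32.2 and CDH1 from 64.0 and 69.1 to 12.5 and 14.4. KRT19 went from 709 and 728 to 233 and 237 and KRT18 from 564 and 565 to 489 and 477. KRT8 went the other way, from 583 and 586 to 702 and 683. In H1975 the summed level of 6 fibroblast markers went from 30.8-34.0 to 175-180 FPKM, and COL1A1 and COL1A2 were the markers that reached 1 FPKM in all 4 libraries. The markers moved in different directions. COL1A2 went from 14.0 and 15.1 to 168.6 and 164.2 and PDGFRB from 0.040 and 0.197 to 1.36 and 1.88, whereas COL1A1 went from 14.9 and 16.9 to 9.52 and 9.05 and LUM from 1.89 and 1.79 to 0.099 and 0.164. DCN and PDGFRA were at or near 0. In bulk RNA, fewer cells of a type and less RNA per cell cannot be told apart, and the part of these shifts in the differences below was not tested.

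VDR was lower in both ZNF263 libraries than in both controls in each of the 3 lines. In PC9 its level was 2.54 and 2.70 FPKM in the control libraries and 0.394 and 0.432 in the ZNF263 libraries. These levels rested on few reads, at least 259 and 289 in the controls and at least 37 and 42 in the ZNF263 libraries. The PC9 means differed 6.35-fold, and every ZNF263 value lay far below both controls. The difference was -1.36 ± 0.067 on the log2(FPKM + 1) scale (SE), which compresses low values, and -2.41 when 0.1 was added instead of 1. Each SE pools the spread of all 6 groups, so a gene has the same SE in every line. The control libraries of HCC827 differed most, by a median of 0.118 in log2 over the genes tested, against 0.056 to 0.071 in the other groups.

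In HCC827 VDR stood at 9.90 and 9.11 FPKM in control and at 7.51 and 7.24 in ZNF263 libraries, from 656 to 916 reads. The ratio of the means was 1.29, and the log2 difference was -0.33 ± 0.067. In H1975 it stood at 13.6 and 13.6 FPKM in control and at 10.3 and 10.5 in ZNF263 libraries, from 1799 to 2413 reads. The means differed 1.31-fold there and the log2 difference was -0.35 ± 0.067. The median difference of the 40 genes around VDR on the chromosome, 20 on each side, was -0.31 in H1975. It was -0.022 in PC9 and 0.028 in HCC827. Less its neighbours, VDR differed by -0.042 in H1975, -1.34 in PC9 and -0.35 in HCC827.

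**Figure D1:**
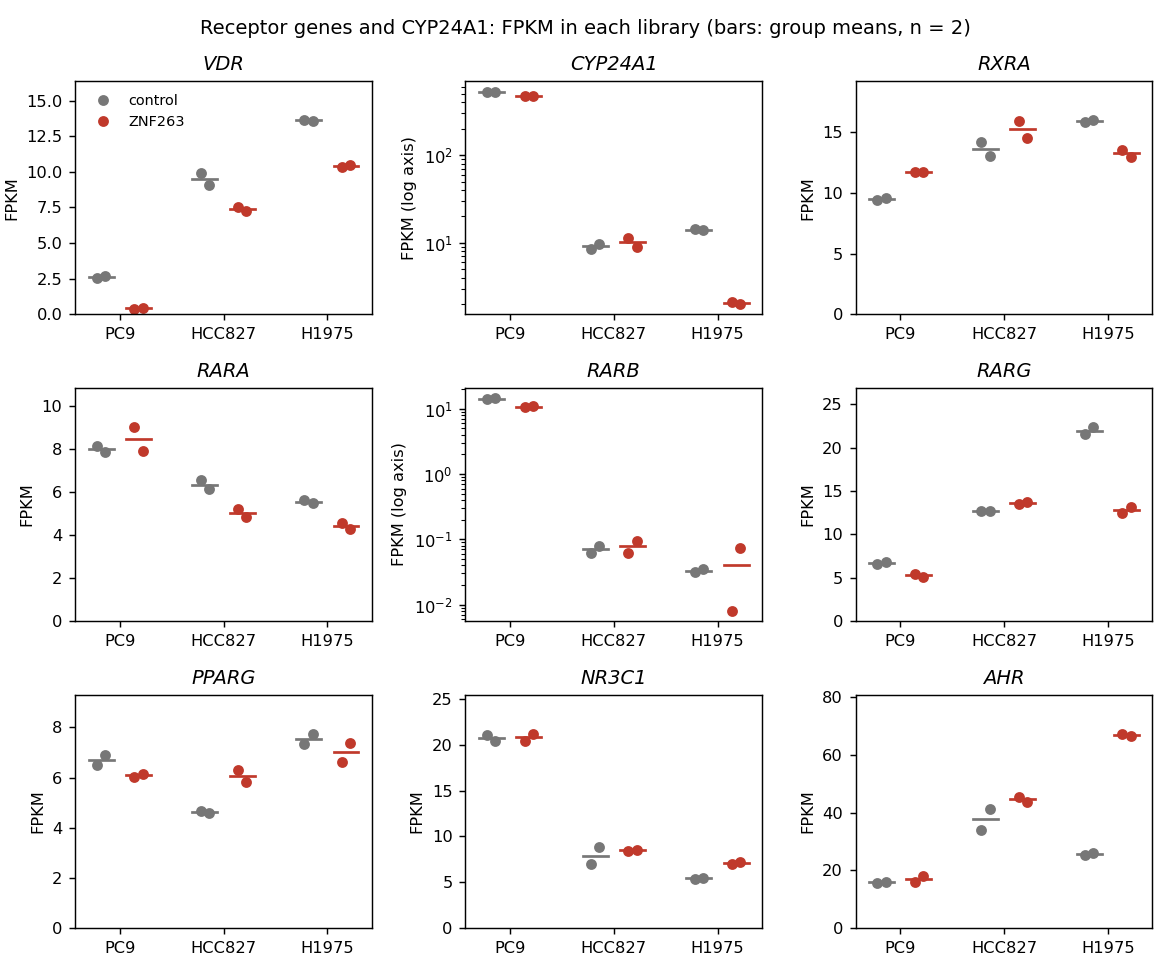
FPKM of the 8 receptor genes and of CYP24A1 (vertical axes, log scale for CYP24A1 and RARB) in each library of PC9, HCC827 and H1975, with control libraries in grey, ZNF263 libraries in red and bars at the means of 2 libraries. VDR is lower with ZNF263 in each line, CYP24A1 separates most in H1975 (14.2 and 14.0 against 2.10 and 2.02), and AHR in H1975 goes from 25.4 and 25.9 to 67.4 and 66.5.

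CYP24A1, the vitamin D-degrading enzyme, was not lowest where VDR was lowest. In PC9 it was the most abundant of the 9 genes, at 529 and 520 FPKM in control and 476 and 475 in ZNF263 libraries. Both ZNF263 libraries were below both controls there, by 1.10-fold in the means and -0.14 ± 0.086 in log2. In HCC827 the values were 8.57 and 9.81 in control and 11.4 and 8.92 in ZNF263 libraries. These groups overlapped, and the log2 difference of 0.12 became -0.036 without ZNF263 library 1.

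In H1975 CYP24A1 was at 14.2 and 14.0 FPKM in control, from 1998 and 1822 reads, and at 2.10 and 2.02 in ZNF263 libraries, from 290 and 282 reads. The mean level was 6.85-fold lower with ZNF263, and the groups did not overlap. This log2 difference, -2.30 ± 0.086, was the largest of the 9 genes in any line, while the neighbours of CYP24A1 had a median of -0.18. VDR and CYP24A1 therefore separated most in different lines, VDR in PC9 and CYP24A1 in H1975. Between lines the levels come from tables that may have been processed separately. Set side by side, the control mean of VDR was lowest in PC9 (2.62 ± 0.108 FPKM), next in HCC827 (9.50 ± 0.56) and highest in H1975 (13.6 ± 0.0495). The control mean of CYP24A1 was highest in PC9 (525 ± 6.25), then H1975 (14.1 ± 0.144) and HCC827 (9.19 ± 0.875), and no libraries of these groups overlapped between lines for either gene.

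**Figure D2:**
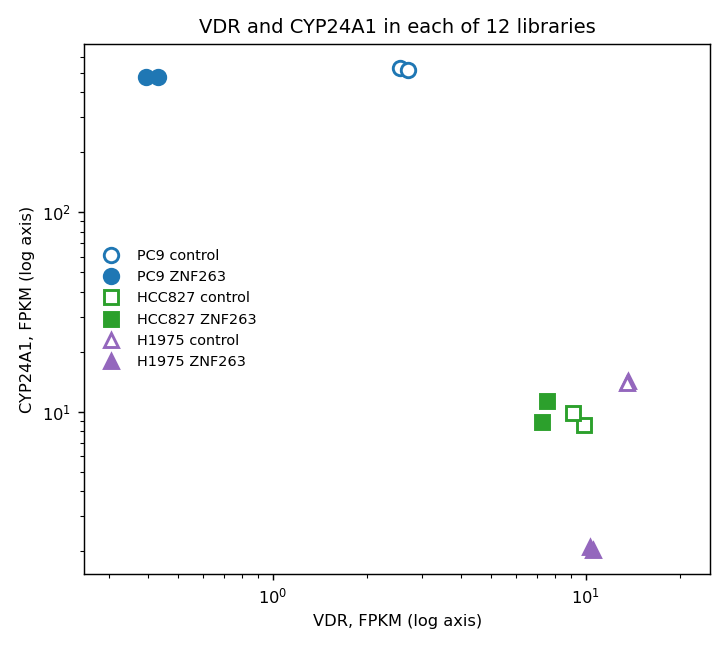
FPKM of VDR (horizontal, log axis) and CYP24A1 (vertical, log axis) in each of the 12 libraries, with open symbols for control and filled symbols for ZNF263. In PC9 the points shift left, from 2.54 and 2.70 to 0.394 and 0.432 FPKM of VDR, with little vertical change, and in H1975 they drop from 14.2 and 14.0 to 2.10 and 2.02 FPKM of CYP24A1.

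RXRA, the shared partner of VDR, the RARs and PPARG, was higher with ZNF263 in PC9 and HCC827 and lower in H1975. In PC9 it stood at 9.45 and 9.55 FPKM in control and at 11.7 in both ZNF263 libraries. The HCC827 values were 14.17 and 13.04 in control and 16.0 and 14.6 with ZNF263, which did not overlap but lay close together. The H1975 values were 15.9 and 16.0 in control and 13.58 and 12.996 with ZNF263. The log2 differences, taken in that order of lines, were 0.28, 0.15 and -0.25, each ± 0.063. The genes around RXRA had a median of 0.24 in H1975, the opposite sign, so that RXRA less its neighbours was at -0.49 there. In HCC827 the difference was 0.098 under median-of-ratios scaling, 0.099 without control library 2 and 0.093 without ZNF263 library 1.

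RARA encodes the most widely expressed of the retinoic acid receptors. In PC9 its values were 8.13 and 7.87 FPKM in control and 9.03 and 7.90 with ZNF263. Only 1 ZNF263 library stood clear of the controls, and without it (ZNF263 library 1) the log2 difference of 0.070 became -0.016. In HCC827 both ZNF263 libraries, at 5.20 and 4.85, were below the controls at 6.57 and 6.12. In H1975 they were at 4.58 and 4.29 against 5.61 and 5.47. The log2 differences were -0.29 and -0.27 (± 0.076), and in H1975 the neighbouring genes had a median of -0.17, which left -0.094.

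RARB, itself a known retinoic acid target, was detected well in PC9 alone among these lines. It stood at 14.0 and 14.4 FPKM in PC9 controls and at 10.6 and 10.9 in ZNF263 libraries, a log2 difference of -0.37 ± 0.067. In HCC827 all 4 libraries held between 4 and 6 reads, or 0.061 to 0.094 FPKM. In H1975 the libraries held 4, 4, 1 and 9 reads. No difference in RARB was detectable at that depth in HCC827 or H1975.

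RARG, the retinoic acid receptor typical of surface epithelia, differed in direction between lines. In H1975 it was at 21.5 and 22.4 FPKM in control and at 12.5 and 13.2 in ZNF263 libraries. The groups lay wide apart, with a 1.71-fold lower mean and a log2 difference of -0.73 ± 0.060. The neighbouring genes had a median of -0.30 there, and RARG less its neighbours was at -0.43. In PC9 RARG was also lower with ZNF263, at 5.47 and 5.10 against 6.59 and 6.76 (log2 difference -0.29). In HCC827 it was slightly higher, at 13.5 and 13.7 against 12.7 and 12.6, and the log2 difference of 0.096 became 0.041 under median-of-ratios scaling. The 2 lines in which RARG was lower had the lowest and the highest control level of it.

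PPARG, the lipid-sensing receptor that drives fat cell differentiation, differed most in HCC827. It stood at 4.67 and 4.59 FPKM in HCC827 controls and at 6.32 and 5.82 in ZNF263 libraries, a log2 difference of 0.33 ± 0.072. In PC9 the ZNF263 libraries, at 6.004 and 6.16, lay just under the controls at 6.50 and 6.88. In H1975 the groups overlapped, at 7.33 and 7.76 in control and 6.64 and 7.37 with ZNF263. The log2 differences there were -0.12 and -0.096, and in H1975 the value was -0.030 without ZNF263 library 1, -0.060 without control library 2, -0.16 without ZNF263 library 2 and -0.25 less the neighbours.

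NR3C1, the glucocorticoid receptor, was higher with ZNF263 in H1975 and overlapped in the other lines. Its H1975 values were 5.31 and 5.49 FPKM in control and 7.003 and 7.23 in ZNF263 libraries. The log2 difference of 0.34 ± 0.083 stood beside a median of -0.076 among neighbouring genes. In PC9 all 4 libraries lay between 20.4 and 21.2 FPKM. In HCC827 the controls were at 6.98 and 8.78 and the ZNF263 libraries at 8.44 and 8.55, so the controls spanned both of the others. Without control library 1 that log2 difference went from 0.10 to -0.043, and without control library 2 to 0.25.

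AHR was higher with ZNF263 in each line, and by far the most in H1975. There it went from 25.4 and 25.9 FPKM in control (5470 and 5161 reads) to 67.4 and 66.5 (14286 and 14182 reads). The mean was 2.61-fold higher, with a log2 difference of 1.35 ± 0.081 and a median of 0.045 among the neighbouring genes. In HCC827 the controls were at 33.9 and 41.4 and the ZNF263 libraries at 45.6 and 43.6. The gap between these groups was small beside the spread of the controls, and the log2 difference of 0.24 ± 0.081 became 0.11 without control library 1 and 0.38 without control library 2. In PC9 the values were 15.6 and 15.9 against 15.9 and 18.0, barely apart, and without ZNF263 library 2 the log2 difference of 0.096 became 0.015.

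**Figure D3:**
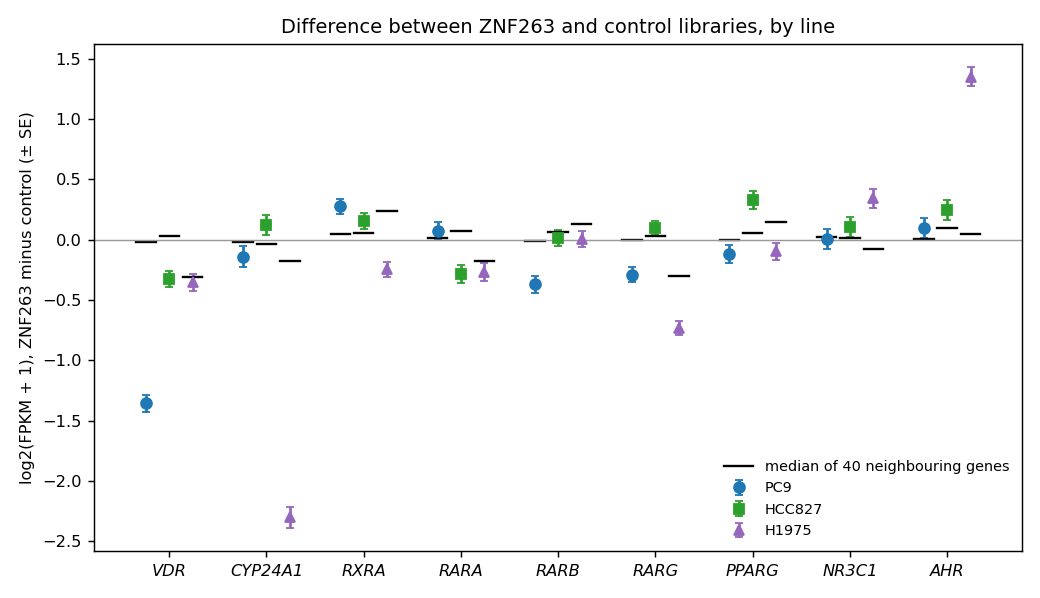
Difference in log2(FPKM + 1) between ZNF263 and control libraries (vertical axis, symbols with SE bars from the fit over 12 libraries) for each gene in PC9, HCC827 and H1975, with short black bars at the median difference of its 40 neighbouring genes. The values farthest from 0 are CYP24A1 in H1975 (-2.30), VDR in PC9 (-1.36) and AHR in H1975 (1.35), and for VDR in H1975 the neighbours' bar (-0.31) lies beside the gene (-0.35).

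All 9 genes passed the filter of at least 1 FPKM in 2 of the 12 libraries, RARB through PC9 alone. In PC9 2 of the 9 had both ZNF263 libraries above both controls and 5 had both below, beside 28.4% and 29.2% of all genes tested. In HCC827 4 were above and 2 below, beside 35.2% and 18.7%. In H1975 2 were above and 5 below, beside 41.7% and 40.8%. At the threshold used for all genes (limma, adjusted p under 0.05), 1 of the 9 was higher and 3 were lower in PC9, where 7.21% of 12623 genes tested were higher and 4.12% lower, 11.3% in all. In HCC827 1 was higher and 2 lower, against 13% and 6.44% of 12266 genes, 19.5% in all. In H1975 2 were higher and 5 lower, against 32.1% and 32.1% of 12258 genes, 64.2% in all. The choice of the 9 genes used these differences, so the counts are descriptions. With the 4 libraries of a line alone, the counts were 0 higher and 2 lower in PC9, and 0 and 0 in HCC827. The gene higher in PC9 was no longer called without any 1 of the 4 libraries, and 2 rather than 3 were lower without control library 2 or ZNF263 library 2. In HCC827 the counts were 1 and 1 without control library 1, 3 and 2 without control library 2, 0 and 1 without ZNF263 library 1, and 2 and 1 without ZNF263 library 2. Of the HCC827 calls 66.9% were higher, but 47.9% under median-of-ratios scaling and 50.3% under quantile normalization. The median difference of the 9 genes was -0.12 in PC9, 0.10 in HCC827 and -0.25 in H1975, beside 0.00, 0.045 and 0.0025 over all genes tested.

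FPKM is scaled by length, so genes were set side by side within control libraries. The lengths used are not given and may differ between lines. In control library 1, PPARG had 6.50 FPKM from at least 1520 reads in PC9 and 4.67 from 597 in HCC827. AHR had 15.6 from at least 1922 and 33.9 from 3821 there. The order of genes with close values thus depends on those lengths. In PC9 controls CYP24A1 (525) was followed by NR3C1 (20.7), AHR (15.8), RARB (14.2), RXRA (9.50) and RARA (8.0001). PPARG (6.69) and RARG (6.68) overlapped, and VDR was last at 2.62. In HCC827 controls AHR (37.6) led, ahead of RXRA (13.6), RARG (12.7), VDR (9.50), CYP24A1 (9.19) and NR3C1 (7.88). VDR overlapped CYP24A1, CYP24A1 overlapped NR3C1, and RARA (6.35), PPARG (4.63) and RARB (0.071) came last. In H1975 controls AHR (25.6), RARG (21.97), RXRA (16.0), CYP24A1 (14.1), VDR (13.6) and PPARG (7.55) stood in that order without overlap, RARA (5.54) and NR3C1 (5.40) overlapped, and RARB was at 0.033.

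After centring each gene on its line, 9 of the 36 pairs of these genes had a Pearson correlation above 0.7 in absolute size over the 12 libraries, which share 3 lines and the same contrast. CYP24A1 correlated at -0.94 with AHR, 0.93 with RARG and -0.77 with NR3C1. AHR correlated at 0.91 with NR3C1, -0.90 with RARG and -0.75 with RARA, and NR3C1 at -0.78 with RARA and -0.72 with RARG. CYP24A1, AHR, RARG and NR3C1 each had their largest difference in H1975 (-2.30, 1.35, -0.73 and 0.34). How far these correlations restate that 1 contrast was not tested. The value for VDR and RARB, 0.91, restates their differences in PC9, since the 8 libraries of the other lines hold 1 to 9 reads of RARB. VDR and CYP24A1 correlated at 0.29, and VDR and RXRA at -0.54. Among 10811 genes compared in this way, those most like VDR were PDIA3 (r = 0.97), VEGFC (0.96), PFDN2 (0.95), AURKA (0.95) and BCL2A1 (0.93). From PC9 through HCC827 to H1975, the log2 differences of AURKA, a mitotic kinase, were -1.46, -0.82 and -0.37, and those of BCL2A1, an apoptosis inhibitor, were -1.31, -0.29 and -0.07. The genes most like AHR were ARHGAP42, FAM13A and PTPRG (r = 0.998, 0.996 and 0.996), with H1975 differences of 1.36, 0.76 and 2.34. Those most like RARG were AKAP12, BAIAP2L1 and GLRX3, at -2.15, -0.82 and -0.79 in H1975. The 3 nearest to RXRA were MKRN1, SRC and MYL5, to RARA FIBP, TCIRG1 and EHD2, to RARB (through PC9, for the same reason) VGLL3, RELB and VEGFC, to PPARG SMYD4, GALNT10 and EPG5, and to NR3C1 HNRNPDL, VPS13A and SPTY2D1, with r between 0.92 and 0.98.

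Other genes of each receptor's pathway were tested with all genes of the table, and "rose" and "fell" below mean limma's adjusted p under 0.05. These lists too were chosen with earlier results of these data known, so their counts are descriptions and not independent support. Each list's counts stand beside the shares of all genes: PC9 had 7.21% higher and 4.12% lower, HCC827 had 13% and 6.44%, and H1975 had 32.1% each way, 64.2% in all. Of the vitamin D supply and target genes, 13 of 22 passed the filter. In PC9 4 of these rose and 0 fell by limma (0 also at an unadjusted p under 0.05), in HCC827 1 rose and 4 fell, and in H1975 7 rose and 4 fell. The filter ran over all 12 libraries, so in every list a gene could be counted in a line where it was near 0 FPKM. CALB1, 1 of those that rose in PC9, went from 0.040 to 0.341 FPKM there and stood at 137 in HCC827 controls. FBP1 was tested in PC9 at 0 FPKM. Their median log2 differences were 0.11, -0.025 and 0.29. CD14, a bacterial lipid co-receptor and known VDR target, rose in H1975 from 3.09 ± 1.2 to 20.2 ± 2.1 FPKM (adjusted p = 3.15e-07). CYP27A1, a vitamin D 25-hydroxylase, fell there from 5.05 ± 0.24 to 1.44 ± 0.16 FPKM (adjusted p = 4.43e-08). The other supply genes called in H1975 went both ways. CYP2R1 rose from 1.01 to 2.11 FPKM and DHCR7 from 48.4 to 59.6, and CYP27B1 fell from 2.83 to 1.24. SPP1 (osteopontin), also a known VDR target, fell in H1975 from 2.78 to 0.705 FPKM (adjusted p = 6.68e-08) and rose in PC9 from 149 to 187 (adjusted p = 0.0243). In H1975 SPP1 thus moved in the direction in which CYP24A1 differed, and CD14 in the other. Of the other targets called there, THBD fell, from only 0.736 to 0.251 FPKM, and IGFBP3, SEMA3B, ATP2B1 and FBP1 rose.

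Of 16 retinoid supply and target genes tested in H1975, 10 fell and 2 rose, beside 32.1% each way of all genes, and the median was -0.36. The 2 that rose were STRA6 (3.09 to 6.76 FPKM) and RARRES1 (0.251 to 1.28). The 10 included HOXA5, at means of only 0.880 and 0.554 FPKM. In PC9 1 rose and 2 fell of 16, and in HCC827 2 rose and 1 fell of 15. ALDH1A3, which makes retinoic acid from retinal, fell in H1975 from 70.2 ± 1.0 to 5.32 ± 0.53 FPKM, a log2 difference of -3.50 (adjusted p = 5.81e-12). CRABP2, which carries retinoic acid to its receptors, fell from 25.02 to 9.18 FPKM (adjusted p = 8.53e-08). DHRS3, a retinal reductase and known retinoic acid target, fell from 18.4 to 7.17 FPKM (adjusted p = 3.05e-09). In PC9 ALDH1A3 fell as well, from 4.53 to 2.88 FPKM (log2 -0.51, adjusted p = 0.00106), and DHRS3 fell from 40.4 to 32.7 (adjusted p = 0.00895), whereas DHRS3 rose in HCC827 from 29.6 to 34.5 (adjusted p = 0.0308).

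Of 9 PPAR target genes tested, 6 rose and 1 fell in HCC827, beside 13% and 6.44% of all genes there. In PC9 2 rose and 1 fell, and in H1975 4 rose and 4 fell. AQP3, a water and glycerol channel, rose in HCC827 from 30.4 ± 0.92 to 82.1 ± 0.47 FPKM (log2 1.40, adjusted p = 2.35e-06) and in H1975 from 9.03 to 18.0 (adjusted p = 8.5e-07). PDK4, a kinase that blocks pyruvate dehydrogenase, rose in all 3 lines, by 0.67, 0.48 and 1.04 (adjusted p = 0.00381, 0.0174 and 9.27e-06). ANGPTL4, a lipoprotein lipase inhibitor that PPARs and the glucocorticoid receptor both induce, fell in all 3 lines, with log2 differences of -0.71, -0.79 and -1.09 (adjusted p = 0.0379, 0.0151 and 0.000346). Its HCC827 values were 20.6 ± 2.19 FPKM in control and 12.1 ± 5.79 with ZNF263, a wide spread. The PC9 and HCC827 calls of ANGPTL4 depended on single libraries, as given below.

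Of 15 glucocorticoid receptor target genes tested, 4 rose and 4 fell in PC9, 2 rose and 3 fell in HCC827, and 8 rose and 7 fell in H1975. SGK1, a kinase that promotes sodium uptake, rose in H1975 from 10.3 to 30.7 FPKM (adjusted p = 3.13e-10) and in PC9 from 20.7 to 27.5 (adjusted p = 0.000829). SCNN1A, a subunit of the epithelial sodium channel, fell in H1975 from 21.4 to 5.94 FPKM (adjusted p = 9.14e-10) and rose in PC9 from 30.5 to 57.2 (adjusted p = 8.93e-06). The metal-binding metallothionein MT2A had log2 differences of -1.48 in H1975 and -0.43 in PC9, where it fell, and rose in HCC827 by 0.43 (adjusted p = 5.9e-09, 0.00434 and 0.00283). In H1975 FKBP5, TSC22D3, PER1, KLF9, NFKBIA, CEBPD and CEBPB also rose, and DUSP1, MT1X, ANGPTL4, SLC19A2 and GADD45B also fell. The H1975 changes of this list thus went in both directions.

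Of 16 AHR partners and target genes tested in H1975, 8 fell and 3 rose, with a median of -0.19. The share called was thus close to the 64.2% of all genes. CYP1A1, the classical AHR target enzyme of hydrocarbon metabolism, fell from 3.23 ± 0.50 to 0.565 ± 0.16 FPKM (log2 -1.43, adjusted p = 4.76e-06). TIPARP, an AHR target that represses the receptor, fell from 33.0 to 14.8 FPKM (adjusted p = 4.13e-08). IDO1, which makes the AHR ligand kynurenine, fell in H1975 from 2.36 to 0.222 FPKM (adjusted p = 3.91e-07) and rose in HCC827 from 2.01 to 3.71 (adjusted p = 0.00323). Also lower in H1975 were PTGES3, HSP90AA1, HSP90AB1, NQO1 and UGT1A6, the last from only 0.206 to 0.040 FPKM. ARNT, ARNT2 and KYNU rose there. AHRR (2.23 to 2.26 FPKM) and CYP1B1 (118 to 124) were among the genes not called in H1975. In PC9 4 of 16 rose and 1 fell, and in HCC827 1 of 14 rose and 1 fell.

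Of other nuclear receptors, 24, 23 and 24 were tested in PC9, HCC827 and H1975. Among these, 3 rose and 2 fell in PC9, 4 rose and 1 fell in HCC827, and 7 rose and 6 fell in H1975. The orphan receptor NR2F1 rose in H1975 from 5.21 to 12.98 FPKM (adjusted p = 4.45e-08), the oxysterol receptor NR1H3 from 2.44 to 5.67 (adjusted p = 5.68e-07), and the fatty acid receptor PPARA from 0.523 to 1.95 (adjusted p = 4.43e-06). Of 17 coactivators and corepressors, 0 rose and 0 fell in PC9 by limma (3 and 0 at an unadjusted p under 0.05), 3 rose and 2 fell in HCC827, and 6 rose and 3 fell in H1975. TBL1X, part of the NCOR complex, rose in H1975 from 5.89 to 14.4 FPKM (adjusted p = 3.23e-09) and the methyltransferase CARM1 from 37.7 to 75.6 (adjusted p = 3.31e-08). The corepressor NRIP1 fell from 8.90 to 4.47 FPKM (adjusted p = 5.27e-07). Genes around PPARA and CARM1 had a median of 0.57 each in H1975, and less their neighbours these genes were at 0.37 and 0.42.

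**Figure D4:**
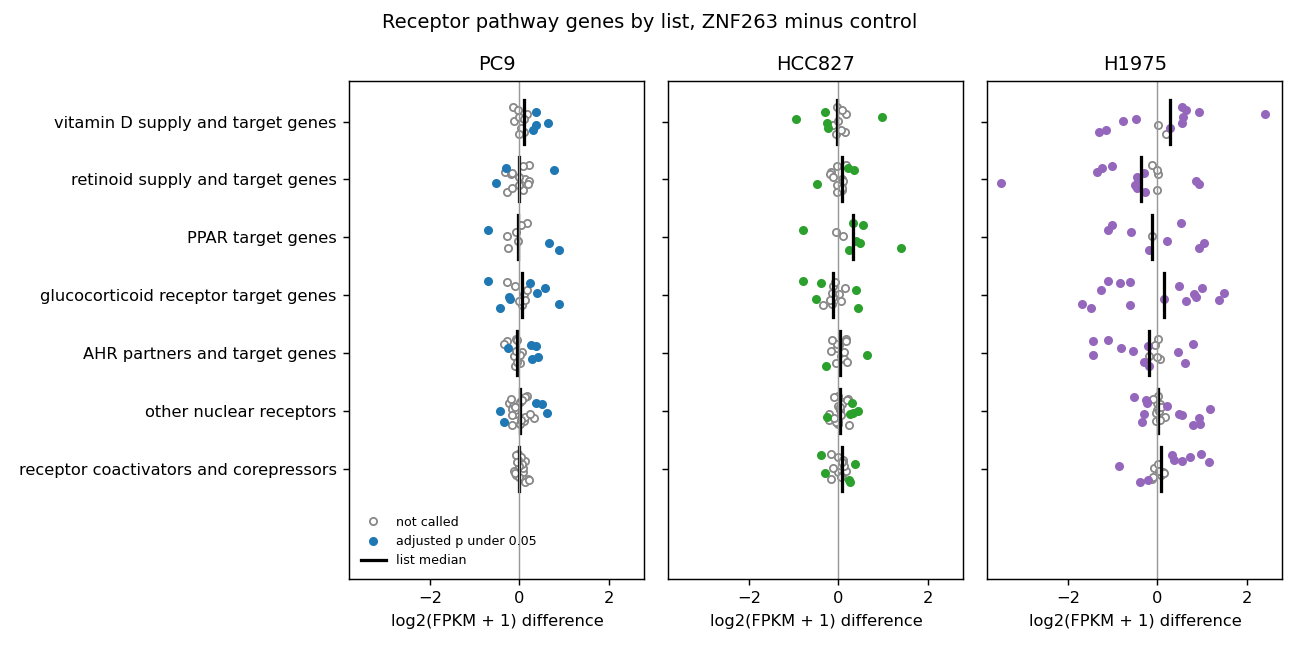
Difference in log2(FPKM + 1) between ZNF263 and control libraries (horizontal axis) for each tested gene of 7 receptor pathway lists in PC9, HCC827 and H1975, with filled points for an adjusted p under 0.05 (limma, over all genes), open points otherwise, and black bars at list medians. Points spread most in H1975, where ALDH1A3 is lowest (-3.50) and CD14 highest (2.40), and the retinoid list has a median of -0.36.

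The ZNF263 difference of 60.3% of 12218 genes varied between the 3 lines (limma F test, adjusted p under 0.05), and of the 21 list genes named here, chosen for large differences, 20 passed that test. The shifts in epithelial and fibroblast markers given above lie in the same H1975 libraries as the lists' changes. In PC9 and HCC827 several calls depended on single libraries. In PC9 the call of SPP1 was lost without control library 1, control library 2 or ZNF263 library 2, those of DHRS3 and MT2A without control library 2 or ZNF263 library 2, and that of ANGPTL4 without any 1 of the 4 libraries. In HCC827 ANGPTL4 lost its call without control library 1, PDK4 without control library 1, control library 2 or ZNF263 library 2, and DHRS3 without control library 2, ZNF263 library 1 or ZNF263 library 2. With 0.1 added in place of 1, SPP1 and ANGPTL4 lost their PC9 calls, and ANGPTL4 lost that call also under quantile normalization and with no filter. In HCC827 ANGPTL4 lost its call with no filter, PDK4 with no filter and under quantile normalization, and DHRS3 under median-of-ratios scaling. The 6 PPAR target genes that rose in HCC827 were 4 without ZNF263 library 2 and 5 without any 1 of the others. The 4 vitamin D genes that rose in PC9 were 1 without control library 2, and 2 to 3 without another.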

How the data were processed

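RNA-seq was available for 12 libraries, grouped by the line and genotype in the labels. The authors deposited FPKM values, 1 column per library. Per the labels' protocols, TRIZOL was used for RNA and a SMARTER mRNA-seq kit for the libraries. The genome build was GRCh38.p13, per the submitters' processing notes, while the sources used here do not name the aligner, counter, annotation or strandedness. All 20003 genes had values in PC9, but 16620 in HCC827 and 16664 in H1975, so differences from control were taken within each line, and levels set side by side across lines were not tested. In total 27 entries whose names had turned into dates were left out.

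Genes that reached 1 FPKM in any 2 of the 12 libraries were analysed as log2(FPKM + 1). The fit used limma 3.58.1 in R 4.3.3 (trended prior variance, 6 group means, two-sided, Benjamini-Hochberg over all genes of a contrast). An F test over the 3 lines tested whether a difference varied between lines. The members and lists were chosen with earlier results of these data known. Named from each list were the 3 genes with the largest difference among those called in at least 1 line, and, for each receptor, the genes most correlated with it (5 for VDR, 3 for the others). Reads were recovered as the fewest whole numbers in the ratio of a gene's values. In HCC827 and H1975 these were then multiplied by a small whole number. It was set by assuming that the FPKM worth of 1 read had 1 fixed ratio between these lines. The fewest were 328 to 458 for VDR in HCC827, and 999, 911, 145 and 141 for CYP24A1 in H1975. PC9 reads are the fewest. Of 1500 genes tried per line, 99.6% in PC9, 99.5% in HCC827 and 98.8% in H1975 gave whole reads, against 0.670%, 1.54% and 1.07% of shuffled values. Same-numbered libraries did not deviate together (correlations of 0.037, 0.089 and -0.043 in PC9, HCC827 and H1975). The fit was tested on simulated data. Other pseudocounts, filters, scalings and subsets of libraries were tried.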

Additional observations from a re-analysis of the deposited data

Results flagged for a closer look

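Several receptors differed in opposite directions between lines, every library of a line lying on the same side, and these differences were not tested because the genes were chosen on them. The difference of RXRA in H1975 less that in PC9 was -0.52 on the log2(FPKM + 1) scale, and less that in HCC827 it was -0.40. For RARG, HCC827 less PC9 was 0.39 and H1975 less HCC827 was -0.83. For PPARG, HCC827 less PC9 was 0.45.

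Of the 21 list genes named above, 20 had a ZNF263 difference that varied between lines (limma F test, largest adjusted p = 0.0385), and ANGPTL4 did not pass that test. The genes were named for a large difference in at least 1 line, and 60.3% of all genes passed the same test, so the count says nothing particular about them. The widest gaps below are between 2 lines each. Among vitamin D genes, H1975 less HCC827 was 2.23 for CD14 and -1.46 for CYP27A1, and H1975 less PC9 was -1.47 for SPP1. Among retinoid genes, H1975 less HCC827 was -3.57 for ALDH1A3, -1.17 for CRABP2 and -1.46 for DHRS3. Among PPAR targets, HCC827 less PC9 was 1.65 for AQP3, and H1975 less HCC827 was 0.56 for PDK4. Among glucocorticoid receptor targets, H1975 less PC9 was -2.58 for SCNN1A, and H1975 less HCC827 was 1.63 for SGK1 and -1.91 for MT2A. Among AHR genes, H1975 less HCC827 was -2.08 for IDO1 and -1.60 for CYP1A1, and H1975 less PC9 was -1.06 for TIPARP. Among other receptors, H1975 less HCC827 was 1.37 for NR2F1, 0.96 for NR1H3 and 0.75 for PPARA. Among coregulators, H1975 less PC9 was 1.21 for TBL1X, and H1975 less HCC827 was 1.15 for CARM1 and -0.97 for NRIP1.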

How the results depend on the processing

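Among the genes named above, no called difference changed sign under any alternative run. Fitting the 4 libraries of a line alone, which leaves less to estimate the spread from, gave 407 genes called in PC9 (1430 in the fit over 12 libraries) and 634 in HCC827 (2386), and 11 list genes in PC9 (27) and 8 in HCC827 (31). That fit ended the calls of SPP1, ALDH1A3, DHRS3 and MT2A in PC9 and of DHRS3, ANGPTL4, PDK4 and MT2A in HCC827. In H1975 it called 7812 genes (7870). Leaving out 1 library gave 591 to 854 genes and 12 to 18 list genes in PC9, 1082 to 3109 and 18 to 33 in HCC827, and 6886 to 6970 and 69 to 77 in H1975. The cause of this spread in HCC827, widest between control library 2 and ZNF263 library 1, was not tested. With the replicate block, 1364, 2262 and 7850 genes were called in PC9, HCC827 and H1975; the libraries share only a number. The named list genes kept their H1975 calls under every alternative in which they were tested; CYP27A1, IDO1 and PPARA did not pass the filter of 5 FPKM. Few reads limit VDR in PC9 (at least 37 and 42 with ZNF263) and RARB in the other lines (1 to 9). The comparison of named list genes with their neighbours was chosen after seeing the data.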
